A study of Mus musculus with 4 samples.

Results

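The sarcomeric myosin heavy chains of skeletal muscle were examined in mouse C2C12 muscle cells that differentiated with or without follistatin. The group comprised Myh1, Myh2, Myh3, Myh4, Myh7 and Myh8, 6 of the 27398 names (unnamed transcripts included) in the gene name column of an Agilent whole mouse genome array. Every non-control probe with one of these names was taken, which gave 16 of 41174. The rule itself uses names and not ratios, although earlier results of these data were known when the group was chosen. Of the 16 probes, 15 passed the filter on dim probes and were tested, and 12 of them were well above background throughout, in both channels of each array.

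A skeletal myosin heavy chain is the motor of the thick filament: its head hydrolyses ATP and pulls on actin, and its rod packs with other rods into the filament. Each gene encodes an isoform with its own contraction speed, and a developing muscle passes from the embryonic chain (Myh3) and the perinatal chain (Myh8) to the fast adult chains 2A (Myh2), 2X (Myh1) and 2B (Myh4) or to the slow chain (Myh7). All but one of the genes lie together in a chromosomal cluster, while the slow gene lies next to its cardiac relative on another chromosome.

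C2C12 is an established line of mouse myoblasts that fuse into myotubes when serum is lowered. In the treated cultures, recombinant human follistatin was given at 200 ng/ml every 24 h through 6 days of differentiation that began at 80% confluence, while the control cultures went through the same 6 days untreated. Follistatin is a secreted protein that binds activins and myostatin. Each of the 4 replicates, called biological by the labels, was 1 two-colour array, with treated cells in the Cy3 and untreated cells in the Cy5 channel, and all cultures came from this 1 line, so the ratios describe a cell line with no innervation. The labels give the horse serum of the differentiation medium as 2% in one place and as 10% in another. Because no array had the dyes the other way round, a dye effect particular to a probe is part of its ratio.

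The 4 arrays were not equally distinct. Across the 27029 tested probes, which are not independent, replicates 2 and 3 resembled each other in their ratios (r = 0.82, rho = 0.81) and in their untreated channels (r = 0.997). The other 5 pairs of arrays had ratio correlations between r = 0.038 and r = 0.32. Means and medians are therefore also given without replicates 2 and 3 for the member probes and for each gene list. Between 61.1% and 65.2% of spots were well above background for follistatin-treated cells and between 61.4% and 69.4% for untreated cells, and 0 spots were saturated. All 6 myotube markers (Ckm, Acta1, Tnnt3, Mymk, Des and Cav3) were well above background, with summed signals of 253559 to 398042 in follistatin-treated cells and 210006 to 422622 in untreated cells. Markers of undifferentiated myoblasts and reserve cells summed to 17009 to 21696 in follistatin-treated cells and 17013 to 20438 in untreated cells. Of 5 fibroblast markers, 4 were well above background and Thy1 was not on any array. Summed over all 5, signals were 88824 to 140500 in follistatin-treated cells against 51314 to 76998 in untreated cells, without overlap. Such a sum is weighted to its brightest probes. Among single tested probes, 6.69% had every follistatin signal above every untreated signal. Of the 4 well above background, only 1 was higher in follistatin-treated cells on all 4 arrays, and 0 were lower on all 4. Myoblasts themselves also express collagen genes, and the part of the marker difference in the myosin ratios was not tested. Well above background were 0 of 3 endothelial, 1 of 3 blood and 1 of 5 adipocyte markers. All 3 smooth muscle markers (Cnn1, Myh11 and Smtn) and all 3 cardiac markers (Myh6, Nppa and Tnni3) were well above background too. In bulk RNA, fewer myotubes and less myosin RNA per myotube cannot be told apart.

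The probes are 60 bases long, and where they lie in the gene bears on every value that follows, so those on which the results turn are printed here, 5′ to 3′, from the scanner files, with mm9 positions. The Myh3 pair is shown because the probes overlap by 32 bases (capitals) and so measure nearly the same stretch of RNA. The first of them is split over an exon junction. Here and below, 3′ is judged among the array probes of a gene, and the distance to the end of the transcript was not measured.
Myh3 A_52_P247953, chr11:66914684-66914888, + strand: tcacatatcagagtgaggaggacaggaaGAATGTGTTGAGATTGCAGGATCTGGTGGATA
Myh3 A_51_P167668, chr11:66914857-66914916, + strand: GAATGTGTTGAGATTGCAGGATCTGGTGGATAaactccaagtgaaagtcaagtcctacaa

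The genes of the family are close relatives, and a probe of one can resemble another transcript. Probes were compared only with each other and not with whole transcripts, so short runs do not show that a probe is specific. Among 104 pairs of probes of different genes, the median longest shared run was 6 bases and 2 pairs shared a run of 10 or more. The longest, 19 bases (capitals), joins the 3′ probes of Myh8 and Myh1, of which the first 30 bases of the Myh1 probe are shown.
Myh8 A_51_P143296, chr11:67121925-67121984, + strand: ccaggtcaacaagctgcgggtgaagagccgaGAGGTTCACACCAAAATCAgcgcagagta
Myh1 A_51_P192042, chr11:67037938-67037967, + strand: gGAGGTTCACACCAAAATCAtaagcgaaga

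Probes of Myh1, Myh2 and Myh8 that lie far upstream of the 3′ probes of their genes are shown because they differed from those probes on single arrays. These differences went in either direction, and the mean ratios were not shown to differ. The Myh1 probe lies 14.065 kb of genomic sequence upstream of the 3′ probe of the gene, the Myh2 probe 4.536 kb and the Myh8 probe 23.537 kb. Those of Myh1 and Myh2 are split over exon junctions.
Myh1 A_51_P364788, chr11:67022830-67023932, + strand: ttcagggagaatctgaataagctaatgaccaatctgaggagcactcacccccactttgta
Myh2 A_51_P395652, chr11:67006311-67006475, + strand: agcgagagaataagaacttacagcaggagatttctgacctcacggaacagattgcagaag
Myh8 A_52_P224283, chr11:67098388-67098447, + strand: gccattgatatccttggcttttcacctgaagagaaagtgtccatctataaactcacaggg

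The comparison asked whether the myosin heavy chain transcripts differ between cells differentiated with and without follistatin. Ratios were mostly below 0, that is, lower in follistatin-treated cells: the mean log2 ratio was negative for 13 of the 15 tested probes and positive for 2. None passed the test. By limma with Benjamini-Hochberg adjustment over all 27029 probes, 0 of the 15 were called at an adjusted p under 0.05, against 2 probes on the whole array (0.0074%), and the smallest adjusted p of a member was 0.138. With arrays weighted by their estimated precision, which gave replicates 2 and 3 most of the weight, 6 members were called among 6772 probes in all. At an unadjusted p under 0.05 there were 6 member probes, all lower, where 10.8% of all tested probes were lower and 9.93% higher by that rule. The 6 include Myh2 A_51_P225134 and A_52_P552036, which overlap. Another of the 6, Myh2 A_52_P582746, passed the filter only through the untreated channel, in which it is brighter. Among the 12 members well above background in both channels of each array the count was 5. The median over the 15 probes was -0.41, with an SD of 0.33 over the arrays (0.014, -0.47, -0.78 and -0.29 on replicates 1 to 4). On replicates 1 and 4 alone that median was -0.12, and 9 of the 15 means were negative and 6 positive. Over all tested probes the median was 0.014, and no array's median lay further from 0 than 0.030.

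The number of member probes with a negative ratio was 7 on replicate 1, 14 on replicate 2, 15 on replicate 3 and 10 on replicate 4. Negative on all 4 arrays were 5 probes, or 33.3% of the 15, where 14.5% of all tested probes were. These were 1 each of Myh1, Myh4 and Myh8 and 2 of Myh2 that overlap. For 3 probes, 1 each of Myh1, Myh4 and Myh8, every follistatin signal was below every untreated signal, which held for 6.75% of all tested probes, and 0 members lay the other way, where 6.69% did. Another 3 probes, 1 each of Myh1, Myh7 and Myh8, were negative on replicates 2 and 3 and positive on replicates 1 and 4, a pattern of 7.06% of all tested probes. By the methods' t-test, at an unadjusted p under 0.05 with a 1.6-fold minimum, 1 member probe was lower and 0 were higher, against 8.98% of all probes in either direction.

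**Figure D1:**
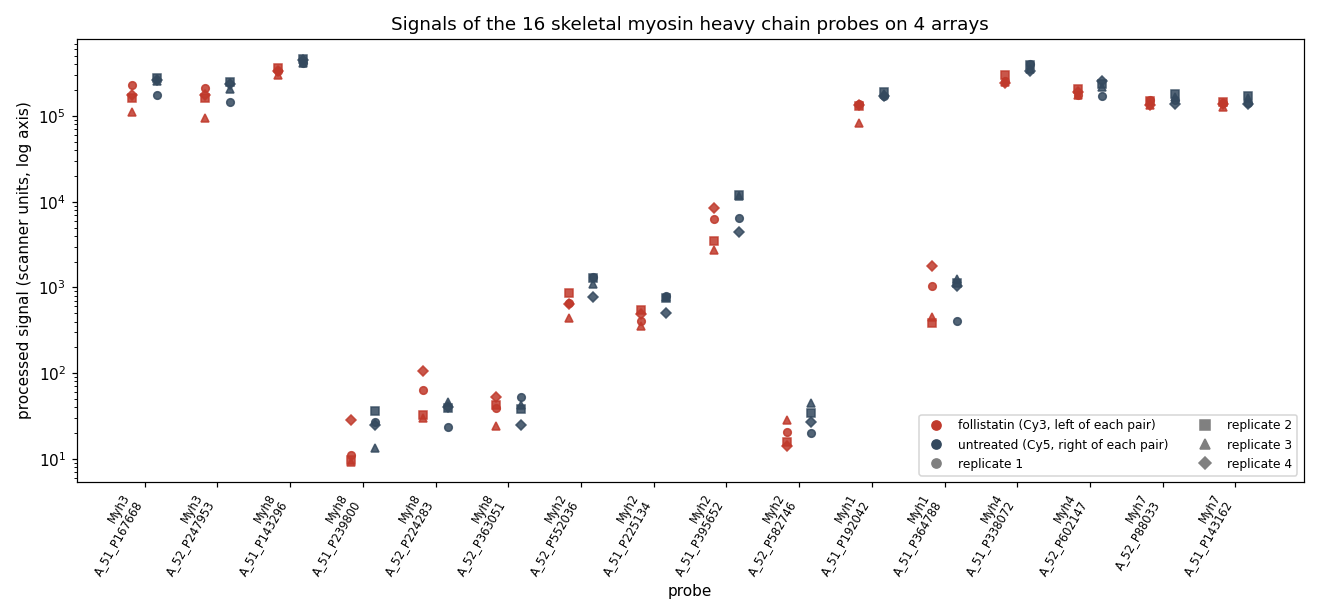
Processed signal (scanner units, log axis) of the 16 probes, each point 1 array, with follistatin-treated cells (red) left of untreated cells (grey-blue) and the symbol giving the replicate. Red and grey-blue points separate completely only for Myh8 A_51_P143296, Myh1 A_51_P192042 and Myh4 A_51_P338072, and heights of different probes cannot be compared.

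Signals are given below as the scanner software's processed signals, in the order of replicates 1 to 4. They are compared only within a probe, since the brightness of different probes is not on a common scale, so no order of the 6 genes by level is given.

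Myh3, the embryonic chain, is among the first made as myoblasts fuse. Its probe A_51_P167668 gave signals of 227693, 161869, 112499 and 175972 in follistatin-treated cells and of 178443, 277962, 254380 and 266662 in untreated cells. The follistatin signal was the higher on replicate 1 and the lower on the other 3 arrays, and the groups overlapped. Its log2 ratios were 0.35, -0.78, -1.18 and -0.60, a mean of -0.55 ± 0.65 (SD, n = 4 arrays; SE 0.27, adjusted p = 0.294). Replicates 1 and 4 alone averaged -0.12. The overlapping probe A_52_P247953 had ratios of 0.52, -0.65, -1.10 and -0.42 and a mean of -0.41 ± 0.68 (SD, n = 4; adjusted p = 0.423), and on replicates 1 and 4 alone its mean was 0.050. The first probe was below the second on every array, with a mean difference of -0.14 ± 0.046 (SD, n = 4; by an exact two-sided sign-flip test 2 of the 16 sign patterns of 4 arrays are as extreme, the fewest possible), so the spread of Myh3 over arrays was far wider than the disagreement of its probes.

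Myh8, the perinatal chain, follows Myh3 in developing and regenerating muscle. At its 3′ probe A_51_P143296 the signals were 335115, 361128, 301015 and 332677 in follistatin-treated cells, against 420059, 463416, 413977 and 454464 in untreated cells. Every follistatin signal lay below every untreated signal. The ratios of -0.33, -0.36, -0.46 and -0.45 averaged -0.40 ± 0.066 (SD, n = 4; SE 0.16, unadjusted p = 0.0437, adjusted p = 0.230), the smallest SD of the 15 tested probes. This mean corresponds to 75.8% of the untreated signal. Without replicates 2 and 3 the mean was -0.39.

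The other 3 Myh8 probes were faint. A_52_P224283, 23.537 kb upstream, was well above background on 2 arrays in follistatin-treated cells and on 3 in untreated cells. Its signals were 63.2, 32.9, 29.8 and 105 in follistatin-treated cells and 23.3, 39.4, 46.1 and 40.6 in untreated cells. Ratios of 1.44 and 1.38 on replicates 1 and 4 stood against -0.26 and -0.63 on replicates 2 and 3, and the mean was 0.48 ± 1.08 (SD, n = 4; adjusted p = 0.510), or 1.41 without replicates 2 and 3. A_52_P363051 lies 27.634 kb upstream and is annotated to another transcript model than the 3′ probe. It had a mean of 0.018 ± 0.82 (SD, n = 4, adjusted p = 0.980), with 2 arrays on each side of 0. Without replicates 2 and 3 its mean was 0.34. A_51_P239800, 13.601 kb upstream and annotated to another transcript model than the 3′ probe, was not tested. It was well above background on 0 arrays in follistatin-treated cells, with signals of 9.29 to 28.4, and on 2 arrays in untreated cells, with signals of 13.6 to 36.4. On replicate 4 the follistatin signal was the higher of the pair, at 28.4 against 25.0, and no fold is given for this probe. Of the 4 Myh8 probes, the 3′ one alone was negative on all 4 arrays.

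Myh2, which encodes the fast oxidative chain 2A, had 4 probes. The 2 most 3′ of them overlap by 18 bases, with their ends 42 bases apart, so they measure partly the same stretch of RNA. A_52_P552036 gave signals of 657, 867, 444 and 642 in follistatin-treated cells and of 1317, 1294, 1103 and 784 in untreated cells. The follistatin signal was the lower on each array, although the highest of them exceeded the lowest untreated signal. The ratios of -1.0, -0.58, -1.31 and -0.29 averaged -0.80 ± 0.45 (SD, n = 4; SE 0.22, unadjusted p = 0.0094, adjusted p = 0.138), the smallest adjusted p among the 15 probes. The overlapping A_51_P225134 gave signals of 409, 547, 359 and 488 in follistatin-treated cells and of 799, 759, 783 and 497 in untreated cells. It averaged -0.65 ± 0.50 (SD, n = 4, adjusted p = 0.194). Both were negative on all 4 arrays. On replicates 1 and 4 alone A_52_P552036 averaged -0.65 and A_51_P225134 averaged -0.50.

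The Myh2 probe A_51_P395652, 4.536 kb upstream, behaved otherwise. Its signals were 6274, 3456, 2771 and 8436 in follistatin-treated cells, and 6547, 11908, 11547 and 4477 in untreated cells. Replicates 2 and 3 had both the highest untreated signals and the lowest follistatin signals. The ratios were -0.06, -1.78, -2.06 and 0.91, with a mean of -0.75 ± 1.42 (SD, n = 4; adjusted p = 0.421), and replicates 1 and 4 alone averaged 0.43. The faint probe A_52_P582746 lies 23.364 kb upstream and is annotated to another transcript model than the other 3. It passed the filter through the untreated channel, being well above background on 1 array in follistatin-treated cells and on 3 in untreated cells. Its mean was -0.66 ± 0.52 (SD, n = 4; adjusted p = 0.193). It was -0.44 without replicates 2 and 3, and -0.075 when background was modelled by normexp and the arrays were normalized by loess.

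Myh1 encodes the fast chain 2X. Its 3′ probe A_51_P192042 gave signals of 138272, 131933, 82182 and 135998 in follistatin-treated cells, against 169526, 189366, 178742 and 171402 in untreated cells. The untreated signals lay close together, with a coefficient of variation of 5.08% against 21.9% in follistatin-treated cells, and the groups did not overlap. The ratios of -0.29, -0.52, -1.12 and -0.33 gave a mean of -0.57 ± 0.38 (SD, n = 4; SE 0.20, unadjusted p = 0.0289, adjusted p = 0.196), and -0.31 without replicates 2 and 3. At the probe A_51_P364788, 14.065 kb upstream, signals were 1030, 389, 451 and 1783 in follistatin-treated cells and 410, 1120, 1256 and 1030 in untreated cells. Here follistatin-treated cells were above untreated cells on replicates 1 and 4 and below them on replicates 2 and 3. The ratios of 1.33, -1.53, -1.48 and 0.79 averaged -0.22 ± 1.49 (SD, n = 4; adjusted p = 0.830), and 1.06 without replicates 2 and 3. The Myh1 probes thus differed by up to 1.62 on the log2 scale within an array, in either direction.

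Myh4 encodes the fastest chain, 2B. Its 3′ probe A_51_P338072 gave signals of 254075, 301510, 252536 and 243490 in follistatin-treated cells, against 402826, 394319, 349979 and 339684 in untreated cells, with no overlap. The ratios of -0.66, -0.39, -0.47 and -0.48 had a mean of -0.50 ± 0.12 (SD, n = 4; SE 0.16, unadjusted p = 0.0196, adjusted p = 0.173). The mean corresponds to 70.7% of the untreated signal, and it was -0.57 without replicates 2 and 3. The second Myh4 probe, A_52_P602147, lies 1.03 kb upstream. It gave 174577, 208623, 175949 and 189802 in follistatin-treated cells and 172671, 238097, 218320 and 254277 in untreated cells, so the groups overlapped. Its ratios of 0.016, -0.19, -0.31 and -0.42 averaged -0.23 ± 0.19 (SD, n = 4; adjusted p = 0.471), and -0.20 without replicates 2 and 3. On replicate 1 the 2 Myh4 probes differed by 0.68, and on the other arrays by at most 0.20.

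Myh7 encodes the slow chain, which the heart also uses. Its 2 probes, at chr14:55589526-55589585 and chr14:55589531-55589590 on the - strand (mm9), share 55 of their 60 bases. Signals of A_52_P88033 were 154167, 149128, 133354 and 133096 in follistatin-treated cells and 152193, 180375, 168940 and 138673 in untreated cells. The groups overlapped on both probes. The ratios of 0.019, -0.27, -0.34 and -0.059 gave a mean of -0.16 ± 0.17 (SD, n = 4; adjusted p = 0.598). A_51_P143162 averaged -0.13 ± 0.17 (SD, n = 4; adjusted p = 0.674), and replicates 1 and 4 alone gave -0.020 for A_52_P88033 and 0.0098 for A_51_P143162.

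**Figure D2:**
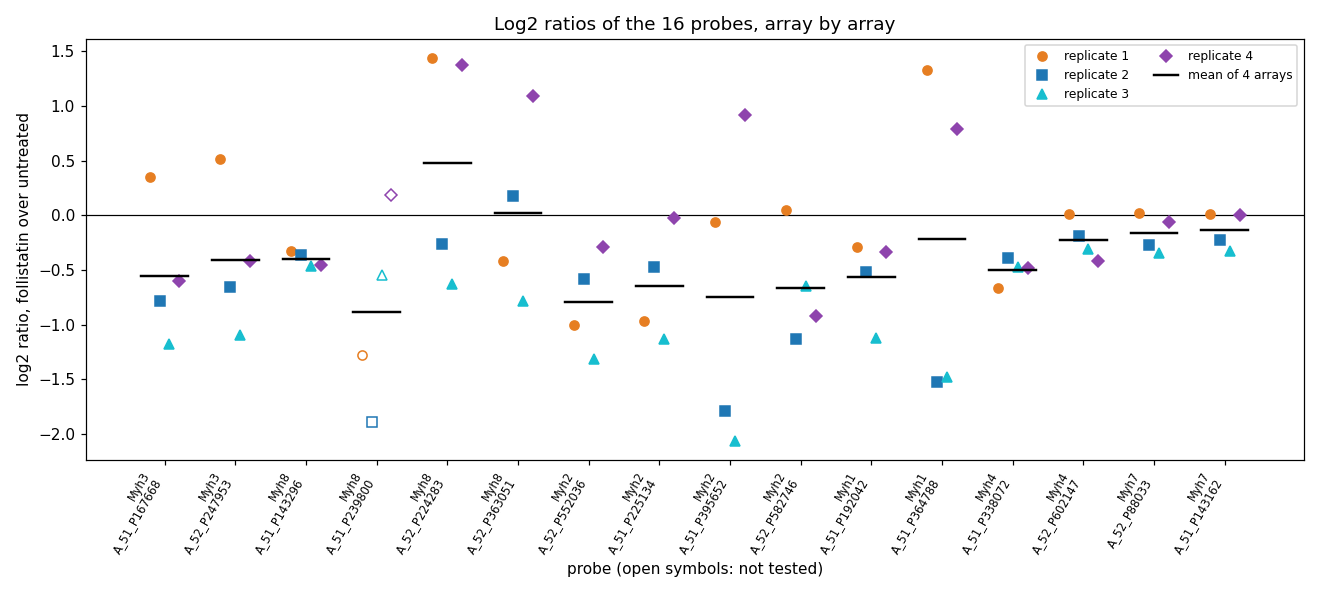
Log2 ratio, follistatin over untreated, of each of the 16 probes on replicates 1 to 4 (symbols), with the mean of the 4 arrays as a bar. Replicates 2 and 3 lie below 0 for nearly every probe, while replicates 1 and 4 lie on both sides, and Myh8 A_51_P143296 and Myh4 A_51_P338072 have the narrowest spread among the probes negative on all arrays.

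The 6 genes were set against each other within each array, each by its tested probe of highest mean signal. For Myh2 that is the upstream probe A_51_P395652, whose ratios varied widely over the arrays. Of the 15 pairs, 4 differed in the same direction on all 4 arrays, and Myh7 was in 3 of them, with the less negative ratio each time. Myh1 was below Myh7 by a mean difference of -0.40 ± 0.25, Myh4 was below Myh7 by -0.34 ± 0.27, and Myh7 was above Myh8 by 0.23 ± 0.16 (SD, n = 4). In the last such pair Myh4 was below Myh8, by -0.10 ± 0.16. For each of the 4 pairs the two-sided exact sign-flip test was at the smallest p that 4 arrays can give, 2 of 16 sign patterns. After Benjamini-Hochberg adjustment over the 15 pairs it became 0.469, so no pair was shown to differ. The directions also depended on the probe. The other Myh4 probe, A_52_P602147 (0.016, -0.19, -0.31 and -0.42), was above Myh8 on each array and on both sides of Myh7. The Myh2 3′ probe A_52_P552036 (-1.0, -0.58, -1.31 and -0.29) was below Myh7 on each array.

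Spread over arrays was also read against the place of the probe. The most 3′ probe of each gene had a mean ratio between -0.80 (Myh2) and -0.16 (Myh7). Their SDs ran from 0.066 (Myh8) to 0.65 (Myh3). The tested probes 4.536 kb or more upstream had SDs of 0.52 to 1.49 and means from -0.75 to 0.48. Of these 5 probes, the 2 of Myh8 and A_52_P582746 of Myh2 were not well above background on every array, and the parts of position and signal in the spread were not tested.

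**Figure D3:**
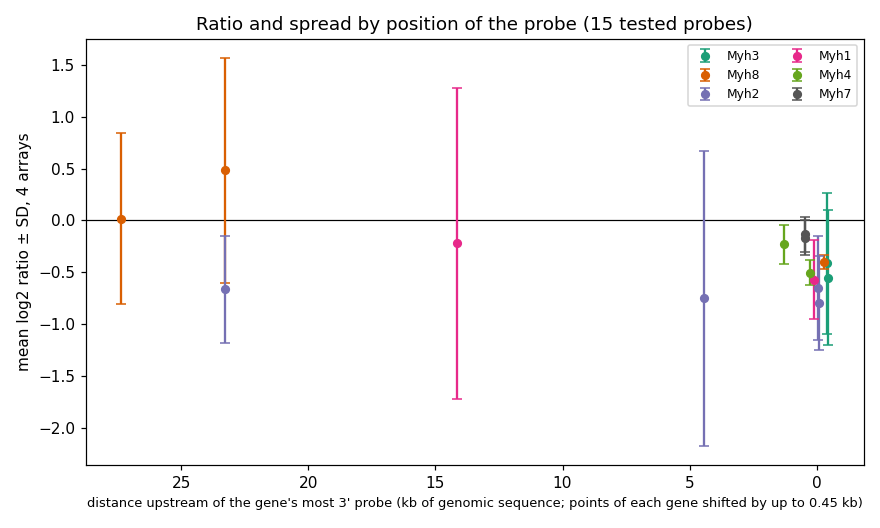
Mean log2 ratio with SD over 4 arrays of the 15 tested probes against the distance of the probe from the most 3′ probe of its gene. Distance is in kb of genomic sequence, with the most 3′ probe at the right and points of a gene shifted slightly sideways. The probes within 4 kb of the most 3′ probe have means between -0.80 and -0.13. Bars cross 0 for 4 of the 5 probes beyond 4 kb. They also cross 0 for all probes of Myh3 and Myh7, which lie within 4 kb.

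In the chromosome 11 cluster, RefSeq (GRCm38.p6) orders the genes Myh3, Myh2, Myh1, Myh4 and Myh8, followed by Myh13, with non-coding genes between them. Only Myh3 was separated from the other 4 by more than 1 annotated gene. The stretch from the first to the last member probe spans 207 kb in mm9 and holds 16 array probes, 14 of members on the + strand and 2 on the - strand that the files annotate to transcripts with no gene name. One of those 2, A_52_P257638, starts 5 bases past the end of the Myh1 3′ probe. Its signals were 568, 686, 372 and 395 in follistatin-treated cells and 1135, 1087, 1170 and 652 in untreated cells. It was lower in follistatin-treated cells on each array, with ratios of -1.0, -0.66, -1.65 and -0.72 and a mean of -1.01 ± 0.45 (SD, n = 4; adjusted p = 0.110), and did not pass the test. The other, A_52_P99353, was well above background on 0 arrays in either channel. Myh13, the extraocular chain at the end of the cluster, was likewise not well above background on any array.

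Promoter sequence was compared because 4 neighbouring genes of the cluster had negative 3′ ratios on all arrays. None of those 3′ probes was called, and each of the 4 genes had another probe that was not negative on all arrays. RefSeq windows of 250 bases before to 50 after the gene start were found for all 6 genes, with 7 windows in all since Myh7 has 2. A run of 14 bases (capitals) occurs in the windows of Myh2, Myh1, Myh4 and Myh8, beginning 125, 160, 158 and 54 bases before the gene start, and not in those of Myh3 or Myh7. It was found by comparing the windows of these 4 members, which were picked by their ratios. Of 32851 RefSeq mouse promoter windows, 4 hold it on either strand (0.0122%). Its rarity and its absence from Myh3 and Myh7 are therefore no test of the ratios. The 60 bases around it are given in GRCm38.p6 coordinates.
Myh2, chr11:67170879-67170938, + strand: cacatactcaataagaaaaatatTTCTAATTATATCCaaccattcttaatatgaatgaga
Myh1, chr11:67199919-67199978, + strand: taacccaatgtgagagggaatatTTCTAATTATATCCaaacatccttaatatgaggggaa
Myh4, chr11:67237631-67237690, + strand: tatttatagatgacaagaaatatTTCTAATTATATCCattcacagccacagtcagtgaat
Myh8, chr11:67277047-67277106, + strand: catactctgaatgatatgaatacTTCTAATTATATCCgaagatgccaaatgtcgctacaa

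Known muscle promoter motifs were searched on both strands of the same windows. The letters TATAAA occur in the windows of Myh1, Myh2, Myh3, Myh4 and Myh8, where 13.6% of all windows hold them. The MEF2 motif occurs in those of Myh1, Myh4 and Myh8, against 3.19% of all windows, and overlaps a TATAAA match in each. The CArG box, bound by serum response factor, occurs only in that of Myh4 (1.63% of all windows), and the E box CANNTG in those of Myh3, Myh4, Myh7 and Myh8 (72.3%). The 14-base run overlaps none of these motifs. A match is a description of the letters and not a bound site.

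Genes that build or handle the thick filament were read from lists, 1 probe of highest mean signal per gene. Their adjusted p came from the limma fit of all 27029 tested probes. It called 0 genes in any of the lists, against 2 probes on the whole array (0.0074%). A separate fit of 1 probe per gene called 2 of 17883 (0.0112%). For the 6 skeletal heavy chains themselves the mean ratio was negative for 6 of 6, where 51.8% of all were, 3 were negative on all 4 arrays (15.9% of all were), and the median was -0.53. Without replicates 2 and 3 that median was -0.22. Myh2 was read here at its upstream probe, while both of its 3′ probes were negative on all arrays. Over all 17883 the median was -0.018.

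Of 9 other myosin heavy chains, 5 were tested and their median was -0.0095, which turned to 0.15 without replicates 2 and 3. The median of -0.0095 is the mean ratio of Myh9 at its brighter probe, and other tested probes gave other values. These averaged -0.60 for Myh9 (adjusted p = 0.320), 0.70 for Myh10 (adjusted p = 0.158) and -0.041 for Myh6 (adjusted p = 0.963). For Myh14 the other probe averaged -1.44 (adjusted p = 0.101). It passed the filter only through the untreated channel, in which it is brighter. Myh10 and Myh11, the non-muscle chain IIB and the smooth muscle chain, were positive on all 4 arrays, with mean ratios of 0.45 (adjusted p = 0.213) and 0.22 (adjusted p = 0.490). Myh14, another non-muscle chain, averaged -0.21 (adjusted p = 0.547), and Myh6, the cardiac neighbour of Myh7, averaged -0.19 (adjusted p = 0.794) with ratios of 1.36, -0.78, -0.91 and -0.45. Myh6 showed the split between replicate 1 and the other arrays that Myh3 also showed.

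Of the 12 genes of the thick filament, M-band and titin, 8 had negative means, 5 were negative on all 4 arrays, and the median was -0.31, or -0.24 without replicates 2 and 3, where it was below that of the skeletal heavy chains. Myom1, the myomesin that links thick filaments in the M-band, had ratios of -0.60, -0.96, -1.86 and -0.68 (mean -1.03, adjusted p = 0.122), and Ttn, the giant protein along which the filament lies, averaged -0.97 (adjusted p = 0.151). Mybpc2, the fast myosin-binding protein C, averaged -0.61 (adjusted p = 0.164). The slow form Mybpc1 was positive on all 4 arrays, with a mean of 0.43 (adjusted p = 0.221).

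The 10 tested myosin light chains had a median of -0.063, with 6 means below 0 and 4 above, and the median turned to 0.16 without replicates 2 and 3. Myl12b, a regulatory light chain of non-muscle myosin, averaged 0.52 (adjusted p = 0.164), and the muscle light chains Myl6b, Myl1 and Myl3 averaged -0.58, -0.48 and -0.48 (adjusted p of 0.328, 0.335 and 0.357). No muscle light chain was negative on all arrays. Among the 12 genes of myosin folding, methylation and turnover the median was -0.079, and -0.11 without replicates 2 and 3. Trim55, the sarcomeric ubiquitin ligase MuRF2, had ratios of -1.11, -1.32, -1.73 and -0.89 (mean -1.26, adjusted p = 0.101). Its relative Trim54 averaged -0.49 (adjusted p = 0.197), the kinase Mylk4 averaged -0.52 (adjusted p = 0.316), and Unc45b, the chaperone that folds the myosin head in muscle, averaged -0.40 (adjusted p = 0.304).

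Other genes of fast and slow fibres lay on both sides of 0. The 10 fast-fibre genes had a median of -0.23 with 6 means below 0, and the 10 slow-fibre genes a median of -0.048, also with 6 below 0. Without replicates 2 and 3 both medians turned positive, to 0.068 for the fast-fibre and 0.10 for the slow-fibre genes. Tnnc2 and Tnni2, fast troponins C and I, were negative on all 4 arrays with means of -0.89 (adjusted p = 0.107) and -0.43 (adjusted p = 0.247). Pvalb, the calcium buffer of fast fibres, averaged 0.61 (adjusted p = 0.283), and Casq2, the slow and cardiac calsequestrin, averaged 0.51 (adjusted p = 0.261). Tnnc1, slow troponin C, averaged -0.45 (adjusted p = 0.280), and myoglobin, Mb, averaged 0.39 (adjusted p = 0.440). Of 24 tested regulators of myosin genes, 16 had means below 0, with a median of -0.19, and -0.073 without replicates 2 and 3. Hdac4, a deacetylase that represses MEF2 factors, averaged -0.58 (adjusted p = 0.162), Mef2c averaged -1.03 (adjusted p = 0.191), Myog, the myogenin of differentiating myoblasts, averaged -0.34 (adjusted p = 0.298), and Six4, a homeodomain factor, averaged 0.38 (adjusted p = 0.293).

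**Figure D4:**
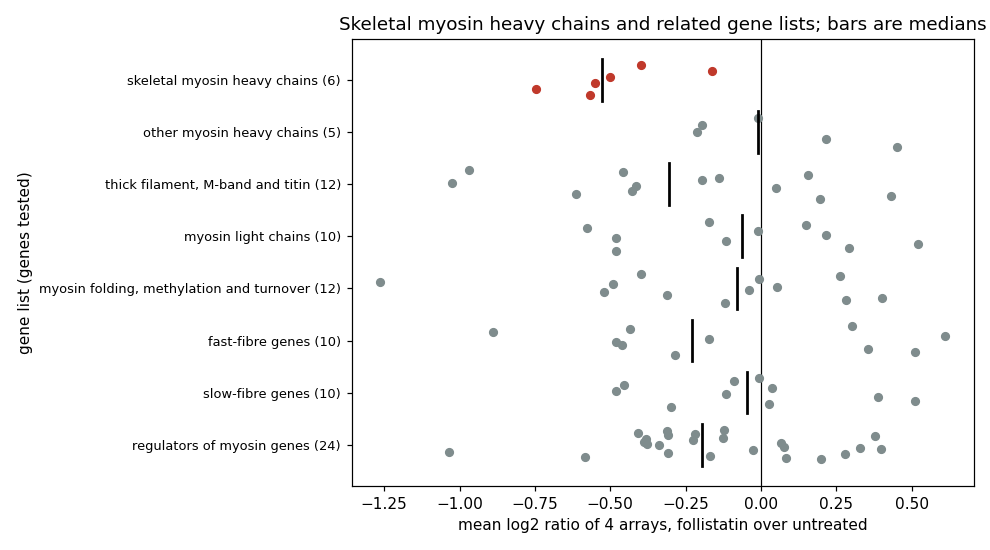
Mean log2 ratio over 4 arrays, follistatin over untreated, of each tested gene (points) in the 6 skeletal myosin heavy chains (red, top) and in 7 related lists (grey), with the median of each list as a bar. All 6 red points lie below 0 with a median of -0.53, the other medians lie between -0.31 and -0.0095, and no point passed the test. Without replicates 2 and 3 the medians were -0.22 for the red points and -0.24 for the thick filament list, so that order did not hold.

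The genes most like each member over the 4 arrays were taken by the smallest root mean square difference of the log2 ratios, among 13595 genes well above background in both channels throughout. They were Zfp687, Supt16 and Olfr686 for Myh4 (0.058 to 0.066) and Adat1, 9930104L06Rik and Exosc4 for Myh8 (0.048 to 0.072). For Myh1 they were Kmt2c, Itgb1bp2 and Chac1, for Myh3 Hras, Fshb and Rasl12, for Myh7 Mtcl1, Arid3b and Gna15, and for Myh2, at its upstream probe, Bach1, H2ac15 and H2ac10. Within the family the closest pair was Myh4 and Myh8, at 0.171, and Myh8 stood at rank 114 among the genes most like Myh4. No other member was among the nearest 3 of any member.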

How the data were processed

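RNA of follistatin-treated (Cy3) and untreated (Cy5) C2C12 cells was compared on 4 two-colour Agilent arrays, replicates 1 to 3 on slide 1 and replicate 4 on slide 2. Per the file headers, the deposited intensity values were made by Agilent Feature Extraction, version 10.7.3.1 for replicates 1 to 3 (the version in the submitters' processing notes) and 10.10.1.1 for replicate 4, which subtracted background and normalized the dyes. The deposited log10 ratio served only to check the dye direction: it equalled log10 of Cy5 over Cy3 within 0.01 for 83.1% of spots. The authors' deposited log2 table held log2 of Cy3 over Cy5 of each array without centring (slope 1.00 on the scanner ratio), with column medians of -0.16, 0.17, 0.13 and 0.11.

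The log2 ratio of the processed signals was computed, outlier spots were left out, and repeated spots were averaged by probe. The test covered the 27029 of 41174 probes that exceeded background clearly, by the scanner software's flag, on 3 or more of the 4 arrays in 1 channel. The ratio was tested against 0 with limma 3.58.1 in R 4.3.3 (lmFit, then eBayes), with Benjamini-Hochberg adjustment over all of them and a threshold of 0.05. Tables were joined in Python 3.11.15 with pandas 2.3.3. Two-sided exact sign-flip tests over 4 arrays cannot go below 2 of 16 sign patterns, which is above 0.05. The number of arrays limits the precision, and a shared culture behind the replicates would leave only technical spread in the p-values.

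The members and lists were chosen with earlier results of these data known. The text names all member probes, up to 4 genes of smallest p per list, genes that touch a member, and the 3 genes nearest to each member. The 2 unnamed cluster probes were added after the data were seen. Alternatives were background and normalization, filters, weights, the slide as a block, 1 probe per gene and left-out replicates. RefSeq (GRCm38.p6) gave promoters and gene order, and the scanner files gave probe positions (mm9). No genome was used here, so exon, intron and UTR annotation of the probes and a search for other matches are not given.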

Additional observations from a re-analysis of the deposited data

How the results depend on the processing

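With normexp (offset 50) and loess on median signals, normexp with median centring, the filter on both channels, replicates 2 and 3 averaged, replicates 1 and 4 alone, and the slide as a block, limma called 0 probes on the array instead of 2. Leaving out 1 replicate at a time, it called 0 each time. Array weights, which ran from 0.46 to 2.16 and gave most weight to the similar replicates 2 and 3, called 6772 probes and 6 members: Myh3 A_51_P167668, Myh1 A_51_P192042 and all 4 Myh2 probes. Of these, A_52_P582746 passed the filter only through the untreated channel, and its ratio was -0.075 with normexp and loess. In all other alternatives 0 members were called. The median member ratio ran from -0.68 (array weights) to -0.12 (replicates 1 and 4 alone). Negative on all arrays were 8 members with normexp and median centring, and 5 to 10 when 1 replicate was left out, 10 of them without replicate 1. Leaving out an array cannot lower such a count. The share of all probes is not given for these settings, so the counts are not read as a result about the members. The Myh1 probe A_51_P364788 turned positive without replicate 2 (0.21), without replicate 3 (0.20), with both averaged (0.21), with replicates 1 and 4 alone (1.06) and with the slide as a block (0.12). Replicates 1 and 4 alone also turned Myh2 A_51_P395652 (0.43), Myh3 A_52_P247953 (0.050) and Myh7 A_51_P143162 (0.0098). The Myh8 probe A_52_P363051 turned negative with arrays centred on their median (-0.045), with normexp and median centring (-0.010), without replicate 2 (-0.037), without replicate 4 (-0.34) and with array weights (-0.17), which also turned Myh8 A_52_P224283 (-0.082). Over the fits that leave out 1 replicate, the ratio ran from -0.74 to 0.21 for Myh1 A_51_P364788 and from -0.34 to 0.28 for Myh8 A_52_P363051. The causes were not tested. The methods' t-test at an unadjusted p under 0.05 with a 1.6-fold minimum called 2423 of 26997 probes (8.98%), 1 of them a member, lower. After Benjamini-Hochberg it called 2 probes and 0 members. The methods' t-test took the channels as separate groups and ignored the pairing within an array. Every limma fit and sign-flip test is already paired within an array, so no further replicate block was fitted there.

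Each value rests on 4 arrays, and the independence of replicates 2 and 3 was not shown. All arrays have 1 dye orientation, the faint Myh8 and Myh2 probes lie near background, and the share of related transcripts in a probe's signal was not tested.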
